A study of Arabidopsis thaliana with 12 samples.

Results

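The 6 Arabidopsis thaliana loci described here, AT5G55450, AT1G13470, AT3G60420, AT4G23610, AT1G35710 and AT5G39670, were listed together as loci associated with salicylic acid and defence. They were chosen by their measured values in these same arrays, namely their difference between ssi2 and wild type and how far each double mutant returned to wild type. They are 6 of the 13286 genes measured by a probe set annotated to a single gene. The 6 loci had 7 such probe sets, because AT3G60420 had 2, and the brighter one stands for it. The annotation used pairs none of the 6 with a gene name or a function, so none is given below. The working name could therefore not be checked against their functions, and the values below describe them by locus number.

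Transcripts were measured in total RNA from leaves of plants labelled as 4 weeks old, grown at 22 °C under a 14 h photoperiod, on 12 Affymetrix arrays. The genotypes were ssi2 act1, ssi2 sid2, ssi2 and wild type, with 3 arrays of each, all in the Col-0 background. All mutant plants carried the ssi2 mutation, the double mutants carried act1 or sid2 as well, and act1 or sid2 plants without ssi2 were not among the samples analysed. The allele names within each gene, and whether plants were pooled for a sample, are not given in the labels. The annotation used paired no probe set with SSI2, ACT1 or SID2 alone, so the genotype labels could not be checked against the mutated genes.

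Salicylic acid is a hormone of plant defence that leaves make largely from chorismate by way of isochorismate in the plastid. It is sensed by NPR1 and related proteins, which act with TGA transcription factors, and a rise in salicylic acid switches on defence genes, among them those of pathogenesis-related proteins. SSI2 introduces the double bond of oleic acid in the plastid, ACT1 draws on that oleic acid to acylate glycerol-3-phosphate, and SID2 is the isochorismate synthase on the route to salicylic acid. Plants with ssi2 are known for low oleic acid, raised salicylic acid and lesions, and act1 is known to restore their oleic acid.

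The median signal of an array ranged from 95.7 to 157.6, and arrays of a genotype correlated over all probe sets with Pearson's r between 0.914 and 0.982. The arrays of ssi2 replicate 3 and wild type replicate 2 lay furthest from their groups, with a mean r to the other 2 arrays of their genotype of 0.935 and 0.917, against 0.945 to 0.973 for the other arrays. They are called the arrays that stood apart, and calls of the 6 loci that changed without both are given with the value. A leaf sample is bulk tissue, in which fewer cells of a type and less RNA per cell cannot be told apart. Of the 38 marker genes of other organs and cell types listed, 5 had a probe set annotated to them alone. Here and below such genes count as measured. Whether others are read by the 8794 probe sets that the annotation paired with no gene is not known here. The leaf gene RCA, for rubisco activase, had signals of 8251 to 13350 in ssi2 act1, 16670 to 19770 in ssi2 sid2, 11680 to 21360 in ssi2 and 2419 to 13400 in wild type. The low end in wild type was replicate 2, one of the arrays that stood apart, against 12253.8 on replicate 1 and 13399.5 on replicate 3. The root genes PYK10, a beta-glucosidase, and EXPA7, a root hair expansin, summed to signals of 66.2 to 74.5 in ssi2 act1, 62.8 to 78.4 in ssi2 sid2, 63.0 to 337.3 in ssi2 and 32.3 to 72.4 in wild type. The stomatal genes FMA and SPCH summed to 178.0 to 269.5, 285.2 to 314.3, 157.1 to 262.3 and 136.5 to 198.8 in the same order of genotypes, and none of these 5 genes was at 0 on any array. Among them limma called PYK10 between ssi2 and wild type, at 1.84 (adjusted p = 0.0448), a call that ended when any of 11 of the 12 arrays, all but ssi2 replicate 3, was left out in turn. The part of these cells in the results below was not tested, and no gene of the phloem, flower and senescence marker lists had a probe set annotated to it alone.

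All 6 loci had higher signals on every ssi2 array than on any wild type array, and they separated by what the second mutation did. They were chosen by these differences, so the separation describes them and is no test. In ssi2 act1, AT1G13470, AT3G60420 and AT5G39670 had means within 0.56 of wild type, with overlapping arrays. AT5G55450 and AT4G23610 had means between those of ssi2 and wild type in ssi2 act1, and AT1G35710 stayed near its ssi2 level. In ssi2 sid2 all 6 remained above every wild type array, and AT1G35710 was higher there than on any ssi2 array. Signals are linear intensities and are not compared between loci, because each probe set has its own brightness. Levels and differences below are on the log2(signal + 16) scale, which understates changes of dim probe sets.

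**Figure D1:**
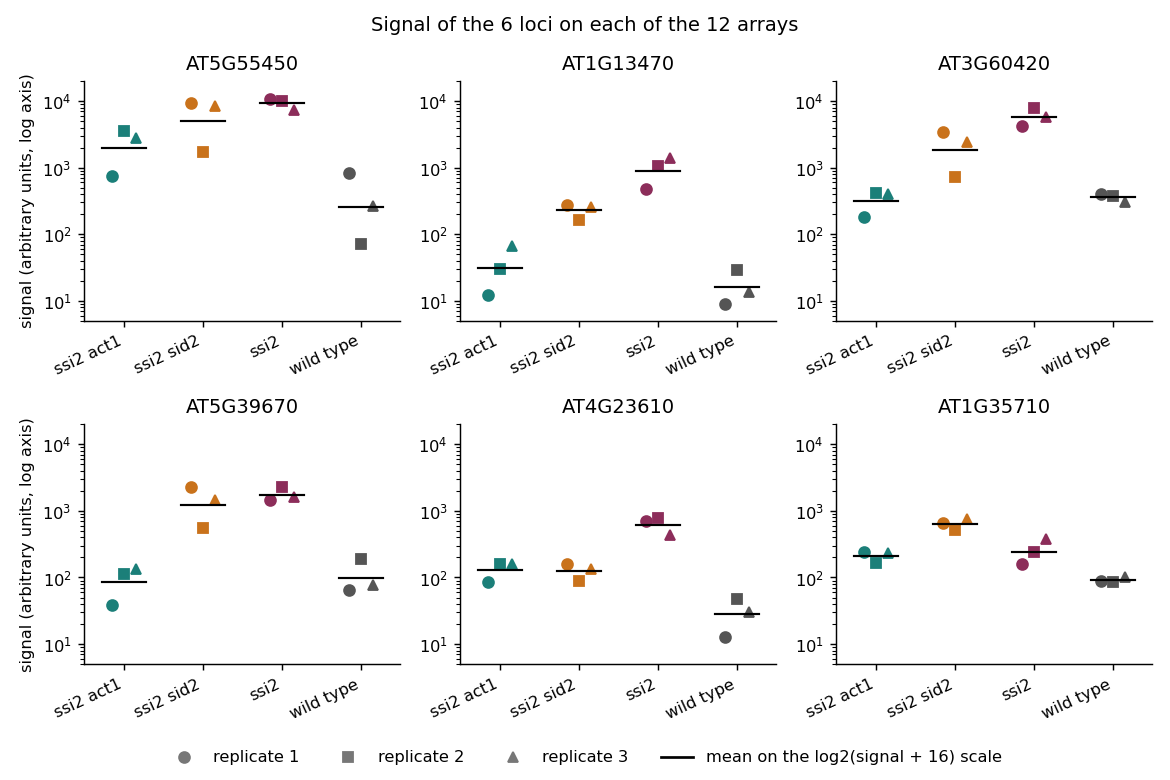
Signals of the 6 loci on each of the 12 arrays, on a logarithmic axis, with genotypes from left to right ssi2 act1, ssi2 sid2, ssi2 and wild type. Points are arrays and lines are means of 3 arrays. For each locus every ssi2 point lies above every wild type point, and the ssi2 act1 points of AT1G13470, AT3G60420 and AT5G39670 overlap those of wild type.

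AT1G13470 had its highest signals in ssi2 and intermediate ones in ssi2 sid2. They were 12.4, 29.8 and 66.7 in ssi2 act1, 275.0, 166.0 and 259.4 in ssi2 sid2, 475.8, 1056.6 and 1379.5 in ssi2, and 8.9, 29.4 and 13.8 in wild type. The genotypes formed 3 separate tiers, with ssi2 highest, ssi2 sid2 next, and ssi2 act1 and wild type overlapping at the bottom. Mean levels were 5.57 ± 0.77, 7.93 ± 0.37, 9.82 ± 0.78 and 5.01 ± 0.45 in ssi2 act1, ssi2 sid2, ssi2 and wild type (SD, n = 3 each). The difference of ssi2 from wild type was 4.81 ± 0.46 (SE here and below). Because the wild type and ssi2 act1 signals are dim, its size depends on the pseudocount, and it was 5.75 with a pseudocount of 1 and 3.56 with 64. It was 3.70-fold lower in ssi2 sid2 than in ssi2.

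AT3G60420 had signals of 182.3, 421.6 and 397.4 in ssi2 act1, 3463.8, 732.8 and 2435.5 in ssi2 sid2, 4201.2, 7745.7 and 5764.7 in ssi2, and 404.7, 375.5 and 308.6 in wild type. The ssi2 arrays lay above all others, the ssi2 sid2 arrays lay between ssi2 and the remaining genotypes without overlap, and the ssi2 act1 arrays spanned the wild type range. Mean levels were 8.37 ± 0.64 in ssi2 act1, 10.86 ± 1.16 in ssi2 sid2, 12.49 ± 0.44 in ssi2 and 8.56 ± 0.19 in wild type (SD, n = 3 each). The level was 15.2-fold higher in ssi2 than in wild type and 17.4-fold lower in ssi2 act1 than in ssi2. Its second probe set was dim everywhere, with signals of 2.7 to 21.1 over the 12 arrays and no order of genotypes like that of the first, so the 2 probe sets of this locus disagree. That probe set read 2.7, 2.9 and 9.5 in ssi2 act1, 6.3, 5.2 and 5.9 in ssi2 sid2, 14.9, 15.2 and 11 in ssi2, and 21.1, 9.7 and 5.8 in wild type.

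AT5G39670 showed the widest gap between the double mutants. Its signals were 38.4, 112.8 and 132.1 in ssi2 act1, 2287.8, 561.8 and 1457.5 in ssi2 sid2, 1439.8, 2261.3 and 1615.3 in ssi2, and 64.5, 188.5 and 76.0 in wild type. The arrays fell into an upper tier of ssi2 sid2 and ssi2, which overlapped, and a lower tier of ssi2 act1 and wild type, which overlapped too. Mean levels were 6.66 ± 0.78 in ssi2 act1, 10.29 ± 1.02 in ssi2 sid2, 10.78 ± 0.34 in ssi2 and 6.84 ± 0.73 in wild type (SD, n = 3 each). The difference of ssi2 act1 from ssi2 sid2 was -3.63 ± 0.54, or 12.4-fold lower in ssi2 act1.

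AT5G55450 had the largest SE of the 6. Its signals were 758.0, 3591.0 and 2765.8 in ssi2 act1, 9246.8, 1700.7 and 8369.3 in ssi2 sid2, 10806.5, 10138.2 and 7436.2 in ssi2, and 835.3, 70.7 and 269.0 in wild type. Neighbours in the order ssi2, ssi2 sid2, ssi2 act1 and wild type overlapped at each step, while the ends of that order did not. Mean levels were 10.95 ± 1.19, 12.32 ± 1.36, 13.19 ± 0.29 and 8.11 ± 1.65 in ssi2 act1, ssi2 sid2, ssi2 and wild type (SD, n = 3 each). The ssi2 level was 33.9-fold that of wild type, a log2 difference of 5.08 ± 0.85. Wild type replicate 2, one of the arrays that stood apart, held the lowest of the 12 values, and without both such arrays the difference was 4.41.

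AT4G23610 was lower than in ssi2 with both second mutations. Its signals were 86.2, 157.6 and 157.5 in ssi2 act1, 157.0, 89.1 and 135.6 in ssi2 sid2, 716.7, 771.9 and 435.3 in ssi2, and 12.7, 48.2 and 30.1 in wild type. The double mutants overlapped each other, lay below every ssi2 array and lay above every wild type array. Mean levels were 7.19 ± 0.44 in ssi2 act1, 7.13 ± 0.37 in ssi2 sid2, 9.32 ± 0.44 in ssi2 and 5.46 ± 0.58 in wild type (SD, n = 3 each). It was 4.39-fold lower in ssi2 act1 and 4.56-fold lower in ssi2 sid2 than in ssi2. The difference of ssi2 from wild type was 3.86 ± 0.36, against 4.50 with a pseudocount of 1 and 2.88 with 64. Without both arrays that stood apart that difference was 4.39.

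AT1G35710 differed from the other 5 in being highest in ssi2 sid2. Its signals were 242.2, 165.1 and 231.2 in ssi2 act1, 646.8, 508.9 and 764.1 in ssi2 sid2, 159.4, 237.4 and 383.5 in ssi2, and 89.3, 85.4 and 100.6 in wild type. The ssi2 act1 arrays lay within the ssi2 range, the ssi2 sid2 arrays lay above all others, and the wild type arrays lay below all others. Mean levels were 7.82 ± 0.28, 9.34 ± 0.29, 8.03 ± 0.60 and 6.75 ± 0.10 in ssi2 act1, ssi2 sid2, ssi2 and wild type (SD, n = 3 each). The ssi2 level was 2.43-fold that of wild type, the smallest such fold among the 6, and the ssi2 sid2 level was 2.48-fold that of ssi2.

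To set the 6 loci beside the rest of the arrays, a genotype difference was called where limma's adjusted p over all 22746 probe sets was under 0.05. Between ssi2 and wild type, 6 of the 6 loci were called higher, where 5.77% of all probe sets were called higher and 4.34% lower. These were 1312 probe sets higher and 987 lower with the deposited scaling, against 891 and 1719 with median centring and 1106 and 1386 with quantile normalization, so the direction of the larger background count turned with the scaling. The loci's median difference was 3.93, against 0.08 over all probe sets. These values chose the loci, so the counts of these loci here and in the comparisons that follow describe them and carry no test. Arrays of the compared genotypes did not overlap at any of the 6, and the share of all probe sets without overlap was not counted. The call of AT1G35710 ended without ssi2 replicate 2 or 3 and without wild type replicate 1, and its difference was 0.97 without ssi2 replicate 3 and 0.93 without both arrays that stood apart, against 1.28 on all arrays.

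**Figure D2:**
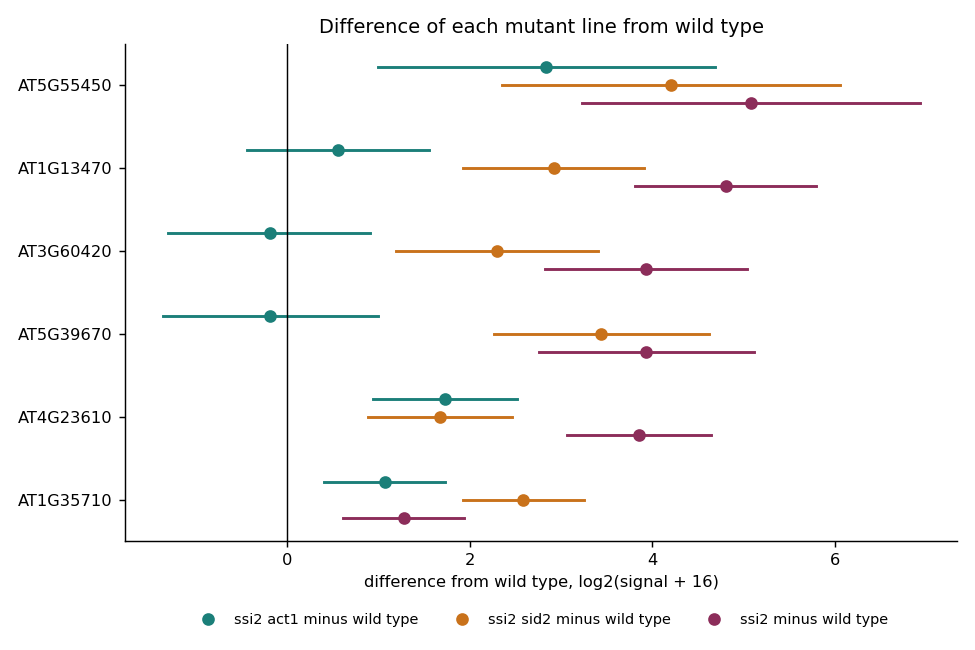
Difference from wild type of ssi2 act1, ssi2 sid2 and ssi2 for each locus, on the log2(signal + 16) scale. Points are fitted differences over 3 arrays per genotype and bars are 95% intervals of the single probe set. The ssi2 act1 intervals of AT1G13470, AT3G60420 and AT5G39670 include 0, and all ssi2 sid2 intervals lie above 0.

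The act1 mutation in ssi2 plants went with lower levels at 4 of the 6 loci by the call, where 5.2% of all probe sets were called lower and 3.17% higher. Here 720 probe sets were higher and 1183 lower as deposited, against 1382 and 815 with median centring and 1075 and 1035 with quantile normalization. AT1G13470 (-4.25 ± 0.46), AT3G60420 (-4.12 ± 0.51), AT5G39670 (-4.12 ± 0.54) and AT4G23610 (-2.13 ± 0.36) were the loci called. AT5G55450 had a difference of -2.24 ± 0.85 with no overlap of the arrays, and it was not called. AT1G35710 had a difference of -0.21 ± 0.30, with a 95% interval from -0.87 to 0.46. The median over the 6 was -3.18, against -0.04 over all probe sets. The comparison of ssi2 act1 with ssi2 shares the ssi2 arrays with the preceding one.

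Against ssi2, ssi2 sid2 had 2 loci called lower and 1 called higher, where 1.71% of all probe sets were called lower and 1.42% higher. The background count was 322 higher and 389 lower as deposited, against 424 and 267 with median centring and 438 and 359 with quantile normalization. AT4G23610 (-2.19 ± 0.36) and AT1G13470 (-1.89 ± 0.46) were lower, and AT1G35710 (1.31 ± 0.30) was higher. The call of AT4G23610 was kept without any single array. The calls of AT1G13470 and AT1G35710 were each lost without any of the 3 ssi2 sid2 arrays, without wild type replicate 1 or 3 and without ssi2 replicate 2. AT1G13470 also lost it without ssi2 replicate 3 or ssi2 act1 replicate 2, and AT1G35710 without ssi2 replicate 1 or ssi2 act1 replicate 1 or 3. Differences over these omissions lay between -2.01 and -1.57 for AT1G13470 and between 1.03 and 1.46 for AT1G35710. Without both arrays that stood apart AT1G13470 was not called either, at -1.57. The remaining loci were not called. Their differences and 95% intervals were -1.63 (-2.74 to -0.52) for AT3G60420, -0.87 (-2.72 to 0.98) for AT5G55450 and -0.49 (-1.67 to 0.69) for AT5G39670. The median over the 6 was -1.25, against -0.07 over all probe sets.

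What was left of the ssi2 rise was read from each double mutant against wild type. In ssi2 act1 1 locus was called higher than in wild type, AT4G23610 (1.73 ± 0.36), where 0.664% of all probe sets were called higher. That call was lost without any of 7 arrays left out in turn, and the difference lay between 1.42 and 1.76 over those omissions. The 95% intervals of ssi2 act1 minus wild type were -0.43 to 1.55 for AT1G13470, -1.30 to 0.91 for AT3G60420 and -1.36 to 1.00 for AT5G39670. These intervals bound a residual difference without showing that the levels were equal. AT5G55450 (2.84 ± 0.85) and AT1G35710 (1.07 ± 0.30) had intervals above 0, of 0.99 to 4.69 and 0.41 to 1.74, and were not called after adjustment over all probe sets.

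The ssi2 sid2 plants had 6 of the 6 loci called higher than in wild type, where 3.62% of all probe sets were called higher. Over all probe sets 823 were higher and 635 lower as deposited, against 612 and 790 with median centring. Differences were 4.21 ± 0.85 for AT5G55450, 3.45 ± 0.54 for AT5G39670, 2.92 ± 0.46 for AT1G13470, 2.59 ± 0.30 for AT1G35710, 2.30 ± 0.51 for AT3G60420 and 1.67 ± 0.36 for AT4G23610. Their arrays did not overlap those of wild type at any of the 6, again without a count over all probe sets. Without ssi2 sid2 replicate 1, and likewise without replicate 3, 3 of the 6 were called, with AT5G55450, AT3G60420 and AT4G23610 lost. AT3G60420 and AT4G23610 also lost the call without wild type replicate 1 or 3, which left 4.

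Set directly against each other, ssi2 act1 had 4 of the 6 loci called lower than ssi2 sid2, where 3.96% of all probe sets were called lower. Over all probe sets 555 were higher and 901 lower as deposited, against 724 and 699 with median centring. These were AT5G39670 (-3.63 ± 0.54), AT3G60420 (-2.49 ± 0.51), AT1G13470 (-2.36 ± 0.46) and AT1G35710 (-1.52 ± 0.30). AT5G55450 had a difference of -1.37, with a 95% interval from -3.22 to 0.48. At AT4G23610 the difference was 0.05, with an interval from -0.74 to 0.84. The call of AT5G39670 was kept without any single array. The other 3 calls were lost without ssi2 sid2 replicate 1 or 3, which left 1, and that of AT1G35710 also without ssi2 act1 replicate 2.

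The return towards wild type can be put as the share of the ssi2 rise that a second mutation removed, on the log2(signal + 16) scale, where a level equal to wild type is a full return, 100%. For act1 this share was 104.9% at AT3G60420, 104.6% at AT5G39670 and 88.4% at AT1G13470. It was 55.3% at AT4G23610, 44.1% at AT5G55450 and 16.2% at AT1G35710. With sid2 the share was 56.7% at AT4G23610, 41.5% at AT3G60420, 39.2% at AT1G13470, 17.2% at AT5G55450 and 12.4% at AT5G39670. At AT1G35710 it was -102.6%, where a negative share means a level further above wild type than in ssi2. The shares use the same ssi2 and wild type arrays for both second mutations, and they are descriptions of values that chose the loci. The order of the loci therefore differed between the second mutations, with AT5G39670 near the top for act1 and second from the bottom for sid2.

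Leaving out each array in turn moved the act1 share between 95.5% and 110.1% at AT3G60420, 93.2% and 111.9% at AT5G39670, and 80.6% and 96.7% at AT1G13470. At AT4G23610 the sid2 share stayed between 51.3% and 61.6% and the act1 share between 48.7% and 60.1%. For sid2, ssi2 sid2 replicate 2 set the lower end at AT5G55450, where the share without it was 1.70%, at AT3G60420 with 24.8% and at AT5G39670 with -1.78%. Without ssi2 sid2 replicate 1 the sid2 share was higher, at 25.6% for AT5G55450, 53.0% for AT3G60420 and 23.6% for AT5G39670. At AT1G35710, the act1 share was -10.4% and the sid2 share -166.7% without ssi2 replicate 3, and 31.5% and -65.5% without ssi2 replicate 1. Of these, ssi2 replicate 3 is one of the arrays that stood apart, and it held the highest ssi2 signal of that locus, while replicate 1 held the lowest.

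**Figure D3:**
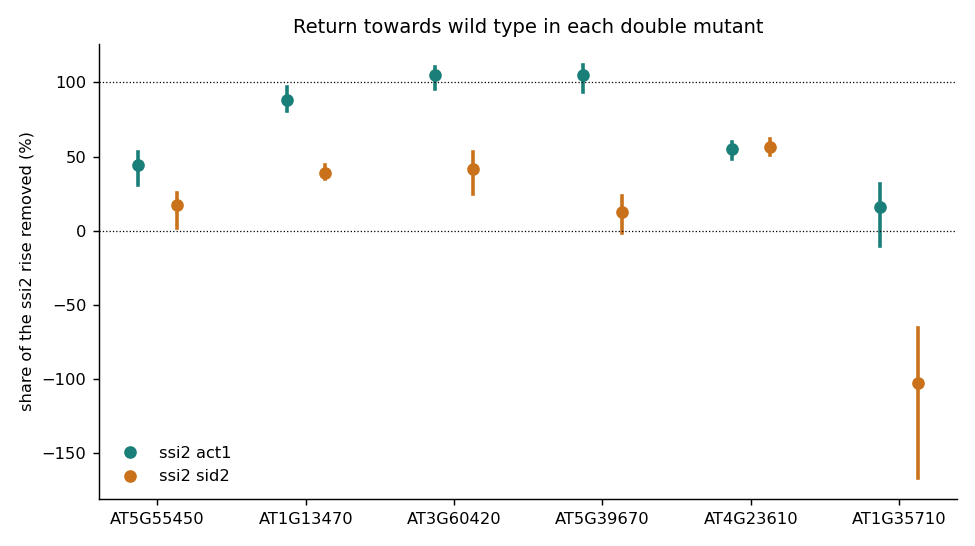
Share of the ssi2 rise over wild type removed by act1 and by sid2 at each locus, in percent. Dotted horizontal lines are at 0 for the ssi2 level and at 100 for wild type. Points use all 12 arrays and bars span the values with each array left out in turn. At AT3G60420 and AT5G39670 act1 removed 104.9% and 104.6% while sid2 removed 41.5% and 12.4%, and at AT4G23610 the shares were 55.3% and 56.7%.

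On several arrays all 6 loci lay on the same side of their genotype's mean, below it on ssi2 sid2 replicate 2 and above it on ssi2 sid2 replicates 1 and 3 and on ssi2 act1 replicate 3. Replicate 2 of ssi2 sid2 was the lowest of the 3 ssi2 sid2 arrays at 6 of the 6 loci, while 35.0% of all probe sets were lowest on that array. The median gap of the 6 loci to the mean of the other 2 arrays was -1.16, with a range from -2.36 to -0.45. Replicate 1 of ssi2 sid2 was the highest of the 3 at 5 of the 6 loci, while 27.8% of all probe sets were highest there. The median signal of replicate 2, 140.6, was the highest of the 3 ssi2 sid2 arrays. On replicate 2, 4 of the 12 measured pathway genes were lowest. In ssi2 act1, replicate 1 was the lowest at 5 of the 6 loci, with a median gap of -1.11, while 33.2% of all probe sets were lowest there. The source of these array differences was not tested, and the labels name no batch, harvest day or scan.

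Without ssi2 sid2 replicate 2 the difference between ssi2 sid2 and ssi2 was -0.09 at AT5G55450, -0.98 at AT3G60420 and 0.07 at AT5G39670. It was -1.67 at AT1G13470, -1.98 at AT4G23610 and 1.46 at AT1G35710. AT4G23610 was then the 1 locus of the 6 that kept its call in that comparison. Against wild type, all 6 stayed called without this array, with differences of 4.997 at AT5G55450, 4.00 at AT5G39670, 3.13 at AT1G13470, 2.96 at AT3G60420, 2.74 at AT1G35710 and 1.88 at AT4G23610.

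**Figure D4:**
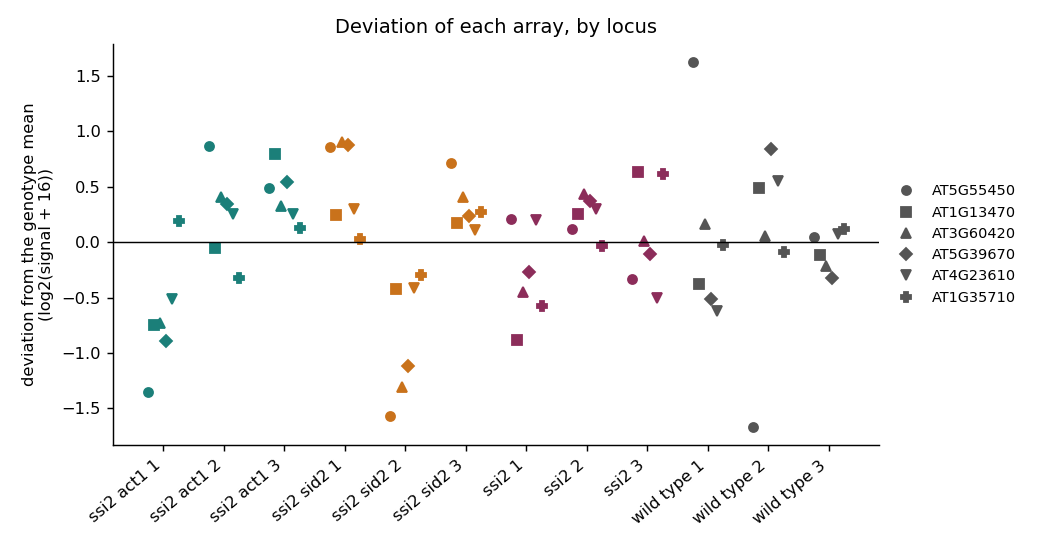
Deviation of each locus from the mean of its genotype on every array, on the log2(signal + 16) scale, with genotypes from left to right ssi2 act1, ssi2 sid2, ssi2 and wild type. Marker shapes are the 6 loci, colours are the genotypes and the horizontal line marks 0. All 6 points of ssi2 sid2 replicate 2 lie below 0.

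Likeness among the loci and to other genes was measured as Pearson's r over the 12 arrays, as a description, since the points share 4 genotype means. Between the loci, r was 0.957 for AT1G13470 with AT3G60420, 0.957 for AT3G60420 with AT5G39670 and 0.936 for AT1G13470 with AT5G39670. AT1G35710 was the least like the others, with r between 0.365 to AT4G23610 and 0.650 to AT5G55450. Among 7350 genes above the 40th percentile of mean level, the closest to AT1G13470 was AT1G66880 (r = 0.990), followed by YLS5 (0.978), a gene named for leaf senescence, and RING1 (0.975), named for its RING finger. RING1 was also the second closest to AT3G60420 (0.972), after AT5G22530 (0.978).

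AT5G39670 was closest to SAL2 (0.982), named for a phosphatase related to SAL1, then to AT3G01830 (0.973) and to AMY1, an alpha-amylase (0.972). AMY1 had mean levels of 5.89 in ssi2 act1, 9.58 in ssi2 sid2, 10.41 in ssi2 and 5.70 in wild type, the same order of tiers as AT5G39670. AT5G55450 was closest to ATPMEPCRB, a pectin methylesterase (0.969), which had mean levels of 7.25, 8.16, 8.79 and 5.72 in ssi2 act1, ssi2 sid2, ssi2 and wild type. AT4G23610 was closest to AT5G42830 (0.953) and AT1G35710 to AT5G11020 (0.954).

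The neighbours of the loci on their chromosomes served as a measure the choice did not use. Of the 24 measured genes that lie first or second on each side of a locus among the measured genes, limma called 1 between ssi2 and wild type, a higher one, which is near the 5.77% of all probe sets called higher there. The gene was AT5G55420, near AT5G55450, with a difference of 2.33 (adjusted p = 0.00224). It was lower than in ssi2 in ssi2 act1 (-1.99, adjusted p = 0.00724) and in ssi2 sid2 (-1.85, adjusted p = 0.0218). The sid2 call was lost without any of the ssi2 or ssi2 sid2 arrays. Near AT3G60420, AT3G60450 was lower in ssi2 act1 than in ssi2 (-1.995, adjusted p = 0.0023), with 0.82 between ssi2 and wild type (adjusted p = 0.122). Its difference of -1.29 in ssi2 sid2 against ssi2 passed at adjusted p = 0.0444, and 17 of 22 alternatives ended that call. Thus 2 of the 24 neighbours were called lower in ssi2 act1 than in ssi2, where 5.2% of all probe sets were called lower. Likewise 2 of the 24 were called lower in ssi2 sid2 than in ssi2, where 1.71% of all probe sets were called lower.

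Most of the measured genes listed for salicylic acid signalling were higher in ssi2 too. Of 56 genes listed for synthesis and transport, immune regulation, perception, response and conversion, 12 had a single-gene probe set, and limma called 9 higher and 0 lower between ssi2 and wild type, with 9 and 0 at an unadjusted p under 0.05. Their median difference was 2.31, against 0.08 over all probe sets, of which 5.77% were called higher. In ssi2 act1 against ssi2, 8 were lower and 0 higher, with the same 8 and 0 unadjusted, and a median of -1.93. Over all probe sets 5.2% were called lower there, with a median of -0.04. In ssi2 sid2 against ssi2, 4 were lower and 0 higher, with 8 and 0 unadjusted, and a median of -1.26. Here 1.71% of all probe sets were called lower, with a median of -0.07. The list was drawn up with results of these arrays known, so it is no independent support for the pattern of the 6 loci.

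Of the response genes, 3 of 14 were measured, and ssi2 exceeded wild type and ssi2 act1 fell below ssi2 in all 3. WRKY6, a transcription factor of senescence and defence, exceeded wild type in ssi2 by 4.13 ± 0.47 (adjusted p = 0.000249) and lower in ssi2 act1 than in ssi2 (-2.80, adjusted p = 0.00359). WRKY53, another transcription factor of leaf senescence and defence, differed by 3.38 ± 0.34 between ssi2 and wild type (adjusted p = 0.000123) and by -3.38 between ssi2 act1 and ssi2 (adjusted p = 0.000202). It was also lower in ssi2 act1 than in ssi2 sid2 (-2.11, adjusted p = 0.00535), the 1 gene of the 12 called in that comparison. GRX480, a glutaredoxin induced by salicylic acid, exceeded wild type in ssi2 by 2.76 ± 0.41 (adjusted p = 0.0014). It was lower than in ssi2 in ssi2 act1 (-2.41, adjusted p = 0.004) and in ssi2 sid2 (-2.03, adjusted p = 0.0214). For GRX480 the sid2 call ended without ssi2 replicate 1 or 2 and without ssi2 sid2 replicate 1 or 3. WRKY6 and WRKY53 did not pass between ssi2 sid2 and ssi2, at -1.33 (adjusted p = 0.17) and -1.27 (adjusted p = 0.0714), and WRKY53 passed there without ssi2 sid2 replicate 2 (adjusted p = 0.0208) or wild type replicate 2 (adjusted p = 0.0458).

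Of 6 listed immune regulators, 3 were measured. SAG101, which works with EDS1 in immune signalling, exceeded wild type in ssi2 by 2.18 ± 0.30 (adjusted p = 0.000895) and lower in ssi2 act1 than in ssi2 (-1.44, adjusted p = 0.0124), a call lost without ssi2 replicate 2 or ssi2 act1 replicate 2. Between ssi2 sid2 and ssi2 it had -1.22 (adjusted p = 0.0538), which passed without ssi2 replicate 1 (adjusted p = 0.0187) or wild type replicate 2 (adjusted p = 0.04). AT4G08850 had signals of 822.3, 554.1 and 1002.1 in ssi2 act1, 930.2, 1104.1 and 914.9 in ssi2 sid2, 1727.6, 2939.7 and 2797.0 in ssi2, and 191.8, 187.8 and 257.7 in wild type. The double mutants lay between ssi2 and wild type without touching either, much as at AT4G23610 among the 6 loci. Its difference of ssi2 from wild type was 3.43 ± 0.29 (adjusted p = 5.39e-05), and ssi2 act1 was lower than ssi2 (-1.63, adjusted p = 0.00481). In ssi2 sid2 it was lower than in ssi2 (-1.29, adjusted p = 0.0326), a call lost without ssi2 replicate 2 or 3 or any of the ssi2 sid2 arrays. The double mutants stayed above wild type, by 1.80 in ssi2 act1 (adjusted p = 0.00961) and 2.14 in ssi2 sid2 (adjusted p = 0.00208). AT3G48080 exceeded wild type in ssi2 by 1.33 (adjusted p = 0.0251), a call lost without any wild type array or without ssi2 replicate 2 or 3. Its difference of ssi2 act1 from ssi2 was -0.12 (adjusted p = 0.893).

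AT3G47480, the 1 measured gene of 12 listed for synthesis and transport, exceeded wild type in ssi2 by 3.32 (adjusted p = 0.00997) and lower in ssi2 act1 than in ssi2 (-3.43, adjusted p = 0.0106). AT4G26120, the 1 measured of 14 perception genes, differed by 2.44 between ssi2 and wild type (adjusted p = 0.00146), by -2.27 between ssi2 act1 and ssi2 (adjusted p = 0.00296) and by -1.56 between ssi2 sid2 and ssi2 (adjusted p = 0.0413). The last call was lost without any of 8 arrays left out in turn. The annotation used gives AT3G47480, AT4G26120, AT3G48080 and AT4G08850 no gene name.

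Among the enzymes that convert salicylic acid, UGT76B1, a glucosyltransferase, had signals of 2.3, 4.3 and 29.3 in ssi2 act1, 1.2, 1.5 and 2.0 in ssi2 sid2, 77.4, 150.6 and 95 in ssi2, and 3.9, 49.7 and 2.9 in wild type. It was lower than in ssi2 in both double mutants, at -2.23 in ssi2 act1 (adjusted p = 0.014) and -2.77 in ssi2 sid2 (adjusted p = 0.00988). Its ssi2 sid2 signals lay below those of ssi2 act1, but all were dim. That difference, 0.55 for ssi2 act1 minus ssi2 sid2, was not called (adjusted p = 0.622). The difference of ssi2 from wild type at UGT76B1 was 2.04 (adjusted p = 0.0181), a call that ended without ssi2 replicate 2, and without wild type replicate 1 or replicate 3. The act1 call was lost without ssi2 replicate 2 or ssi2 act1 replicate 2. BSMT1, a methyltransferase of benzoic and salicylic acid, did not pass between ssi2 and wild type (1.44, adjusted p = 0.22), and it passed without ssi2 replicate 3 (adjusted p = 0.0173). UGT74F1, which joins glucose to salicylic acid, had -0.50 in the same comparison (adjusted p = 0.578), and AT5G52810 had -1.73 (adjusted p = 0.24).

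**Figure D5:**
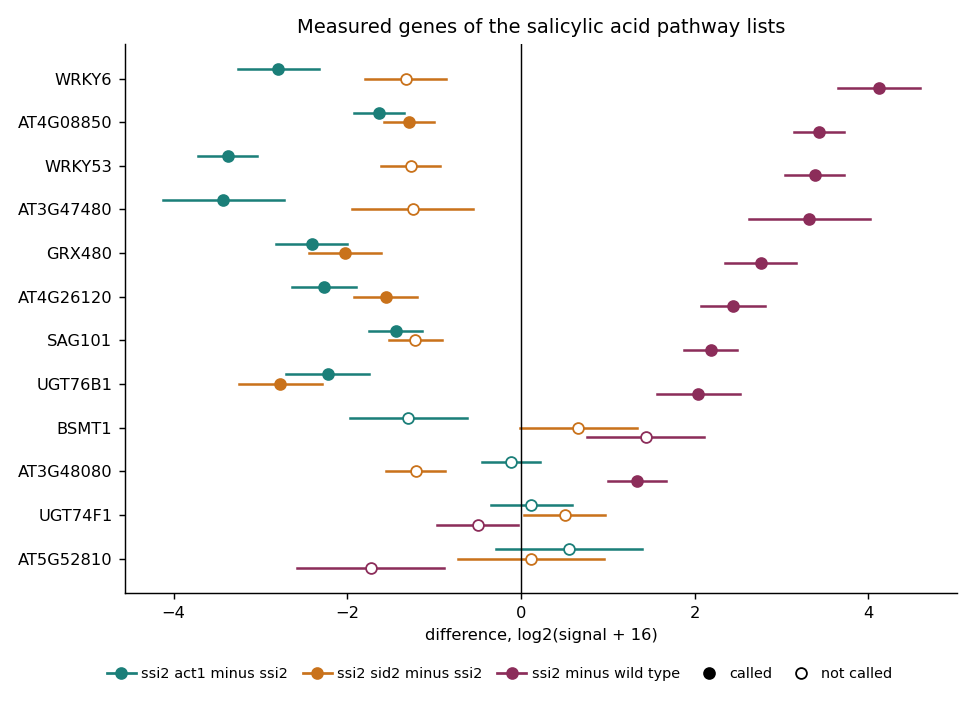
Differences of the 12 measured genes of the salicylic acid lists on the log2(signal + 16) scale, for ssi2 act1 minus ssi2, ssi2 sid2 minus ssi2 and ssi2 minus wild type. Filled points passed the adjusted threshold, open points did not, and bars are 1 SE on each side. The 9 genes called in ssi2 lie above 0, and 8 were called lower in ssi2 act1 and 4 in ssi2 sid2.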

How the data were processed

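Signal intensities of 12 arrays, on a linear scale, were used as deposited by the authors, with their scaling kept. Affymetrix Expression Console 1.0 is named in the submitters' processing notes; the summary method is not given in the sources used here. Of 22810 probe sets, 64 controls were left out. The annotation paired 13513 probe sets with 1 gene, 503 with several and 8794 with none, and 13436 of the first matched a RefSeq table of assembly TAIR10.1 that gave symbols and gene order. A gene with several probe sets is shown by the one with the highest mean. Values were taken as log2(signal + 16) and all 12 arrays were fitted in limma 3.58.1 (R 4.3.3) with a mean per genotype. P-values are two-sided, with Benjamini-Hochberg adjustment over 22746 probe sets. The fit was tested on simulated data.

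The loci and lists were chosen with earlier results of these data known. Named pathway genes are the called ones, and uncalled ones are given for completeness. Titles call the replicates biological without saying that plants were raised separately, so a p-value reflects the spread among these arrays, which may be technical. Precision is limited by the number of arrays. Alternatives covered scaling, pseudocount, filtering, blocking, array weights, variance prior and left-out arrays. Protein relatives and promoter motifs were not analysed here.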

Additional observations from a re-analysis of the deposited data

How the results depend on the processing

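No difference of the 6 loci, of the 12 pathway genes or of the other tested genes named changed direction while called under any of the 22 alternatives in which it was tested. The number of loci called higher in ssi2 than in wild type was 5 or 6 throughout, and the number called in ssi2 act1 against ssi2 was 4 or 5. In ssi2 sid2 against ssi2, 3 were called, against 1 when the pseudocount was 1, 1 when fitting only the 6 arrays compared, and 1 to 3 with an array left out. In ssi2 act1 against wild type, 1 was called, against 0 with quantile normalization, median centring, a pseudocount of 1 or 64, the replicate block or only the 6 arrays compared, 2 with array weights, and 0 to 1 with an array left out. With an array left out, 3 to 6 were called in ssi2 sid2 against wild type and 1 to 4 in ssi2 act1 against ssi2 sid2. Pathway genes lower in ssi2 sid2 than in ssi2 numbered 4, against 2 with quantile normalization, median centring, the 40th percentile filter, the replicate block or without both arrays that stood apart, 1 with a pseudocount of 1, 8 with array weights, and 1 to 6 with an array left out. The filter removed some pathway genes from the test, and the cause of the other moves was not tested. Pathway genes lower in ssi2 than in wild type numbered 0 to 1 with an array left out, the 1 being AT5G52810 without ssi2 sid2 replicate 1.

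Median centring moved the median difference of all probe sets between ssi2 and wild type to -0.22, against 0.08 as deposited, and AT1G35710 was then 0.98 and not called. Over the other comparisons that median lay between -0.14 and 0.24 with centring, against -0.07 and 0.03 as deposited. Replicate numbers are shared between genotypes, and 6 of 18 same-numbered pairs had correlated deviations over 0.1, with r from -0.383 to 0.335, so the numbers were not taken as pairs. With 3 arrays per genotype, 1 array can decide a call near the threshold. Protein relatives and promoter motifs were planned and not run.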
